A study of Homo sapiens with 8 samples.

Results

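Described here are 10 extracellular matrix genes in hCMEC/D3, an immortalised endothelial line from human brain microvessels that is widely grown to study the blood-brain barrier in culture. The genes, 10 of the 23346 in the deposited table, encode matricellular and fibre-associated glycoproteins: FN1, EFEMP1, EFEMP2, THBS1, CTGF, CYR61, NOV, SPARC, FBN1 and TNC. They were chosen by measured values, since FN1, EFEMP1, CTGF and THBS1 are among the most counted genes of these libraries, so their levels are given as a description without a test. Polyadenylated RNA was sequenced from 8 libraries labelled as replicates of this line, which form 1 group; no treatment or other condition is given. The labels do not say whether the replicates were separate cultures, so every p-value refers only to differences between these 8 libraries, which may be technical. A line of 1 origin is a limited model: it gives no measure of differences between donors, and levels in culture may differ from those in vessels.

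Fibronectin (FN1) is a secreted dimer that cells assemble through integrins into fibrils, on which other matrix proteins are laid down. Fibrillin 1 (FBN1) forms microfibrils, the scaffold of elastic fibres, and the fibulins EFEMP1 and EFEMP2 bind to such fibres. EFEMP2 is needed for elastic fibre assembly. Matricellular proteins are secreted into the matrix but act mainly as signals to cells. Thrombospondin 1 (THBS1) inhibits angiogenesis and activates latent TGF-beta, SPARC binds collagen, tenascin C (TNC) marks remodelling tissue, and CTGF, CYR61 and NOV are the founding members of the CCN family. In endothelial cells CTGF and CYR61 are well-known targets of the YAP and TEAD transcription factors and respond to matrix stiffness and flow.

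The upstream windows of 3 of the most abundant members, FN1, THBS1 and CTGF, are shown as a description. Any part of these sequences in the variation between libraries was not tested. The sequences are from RefSeq (GRCh38.p14), whose promoter table matched 7 of the 10 members and had no entry for EFEMP1, CYR61 and NOV. Each holds the 250 bases before the annotated start site, 5′ to 3′ on the gene's strand: chr6:131951373-131951622 (minus strand) for CTGF, chr2:215436069-215436318 (minus strand) for FN1 and chr15:39580829-39581078 (plus strand) for THBS1. Capitals mark matches to GGAATG (TEAD core, both strands), TGACGTCA (cyclic AMP response element, both strands) and, as a TATA box on the sense strand, TATAAA.
CTGF: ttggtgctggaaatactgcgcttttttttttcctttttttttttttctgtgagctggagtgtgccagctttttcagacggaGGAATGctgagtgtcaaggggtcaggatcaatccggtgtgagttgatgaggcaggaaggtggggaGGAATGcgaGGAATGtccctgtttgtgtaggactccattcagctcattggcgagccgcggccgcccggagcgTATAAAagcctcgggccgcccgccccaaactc
FN1: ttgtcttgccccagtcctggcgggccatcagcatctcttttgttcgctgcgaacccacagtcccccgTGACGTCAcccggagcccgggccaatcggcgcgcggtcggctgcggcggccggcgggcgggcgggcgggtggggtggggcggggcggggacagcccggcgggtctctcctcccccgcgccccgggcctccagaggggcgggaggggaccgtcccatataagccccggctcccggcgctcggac
THBS1: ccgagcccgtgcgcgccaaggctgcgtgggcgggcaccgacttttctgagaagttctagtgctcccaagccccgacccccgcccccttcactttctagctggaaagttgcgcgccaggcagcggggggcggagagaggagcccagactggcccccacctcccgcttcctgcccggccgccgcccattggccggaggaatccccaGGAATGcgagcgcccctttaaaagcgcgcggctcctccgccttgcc

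The CTGF window held 3 TEAD cores, whose first bases lie 169, 104 and 95 bases before the start site, and a TATA box at 32 bases. THBS1 had 1 TEAD core, at 46 bases. The FN1 window had no match to that core and held a cyclic AMP response element at 183 bases. Of the other matched members, FBN1 (58 bases) and SPARC (17 bases, antisense strand) had 1 TEAD core each. Across 35116 such windows, 11.9% held a TEAD core, 0.0826% (29 windows) held at least 3, 1.65% held the cyclic AMP response element and 6.80% held the TATA box. GC boxes (GGGCGG, both strands) were found in FN1, EFEMP2, THBS1, CTGF and TNC and in 42.6% of all windows. No AP-1 match (TGANTCA, in 6.57% of windows) and no CArG box (both strands, in 1.16%) was found in the 7 members' windows. A match is a description of letters and not evidence of binding.

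Total counts per library ranged from 69388544 to 90205244, and none of the 186768 counts was odd. Libraries differed by transcript length: the slope of a library's deviations from the gene means, in log2 per doubling of length, was 0.15, -0.23, 0.15, 0.15, 0.09, 0.15, -0.11 and -0.35 in replicates 1 to 8. Long transcripts were thus lower in replicates 2, 7 and 8. All 10 endothelial markers examined were detected, led by CDH5 at 649 ± 152 CPM (SD, n = 8), with summed levels of 1898 to 3541 CPM. These markers did not all move together. Replicates 5 and 7 were the lowest for CDH5 (523 and 493 CPM), VWF (290 and 363 CPM), TIE1, EMCN and CLDN5. They were not the lowest pair for PECAM1, KDR, TEK, ESAM and ERG. CLDN5, a tight junction claudin, had 237 and 252 CPM in replicates 2 and 8 and 71.5 to 94.7 CPM elsewhere. In contrast, the receptor gene KDR had 114 and 118 CPM in replicates 2 and 8 and 133 to 218 CPM elsewhere. Both were related to the length slope in the test described below (r = -0.835 for CLDN5 and 0.901 for KDR). Of the 10 markers 2 were positively and 4 negatively related to it, against 31.6% and 36.8% of all detected genes. Of the fibroblast and mesenchymal markers, 3 of 7 were detected (COL1A2, COL1A1 and THY1), with summed levels of 147 to 212 CPM, whereas PDGFRA, COL3A1, DCN and LUM had means of at most 0.101 CPM. THY1 was lowest in replicates 2 and 8, at 1.77 and 1.66 CPM against 4.31 to 7.28 CPM elsewhere. CLDN5 and THY1 varied above the trend described below (edgeR adjusted p = 7.36e-04 and 0.0116). COL1A2, the most abundant of the list, was highest in replicate 2 (179 CPM) and had 137 CPM in replicate 8, against 110 to 151 CPM elsewhere. The part of such differences in the results below was not tested. Mural markers summed to 22.6 to 36.5 CPM (3 of 6 detected). Of 4 leukocyte and microglia markers CD68 alone was detected, at 58.8 ± 13.2 CPM (SD, n = 8), with a list sum of 47.0 to 85.0 CPM, and none of the astrocyte or epithelial markers was detected.

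Of the 10 members, 8 were detected, defined as at least 1 CPM (the library-size-scaled count, with TMM factors) in all 8 libraries. Of all genes, 51.3% met this level. Together the members took from 1.62% of the counts in replicate 8 to 2.67% in replicate 1, with 95% Wilson intervals of 1.62 to 1.63% and 2.67 to 2.68%. The intervals, computed on halved counts, cover counting error only, because PCR copies cannot be told from separate molecules here. They are narrow because of the sequencing depth and do not test a difference between libraries. By mean CPM the members ranked 2nd (FN1), 3rd (EFEMP1), 4th (CTGF), 7th (THBS1), 22nd (CYR61), 43rd (SPARC), 617th (FBN1) and 3352nd (EFEMP2) of the table. NOV and TNC lay far below.

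**Figure D1:**
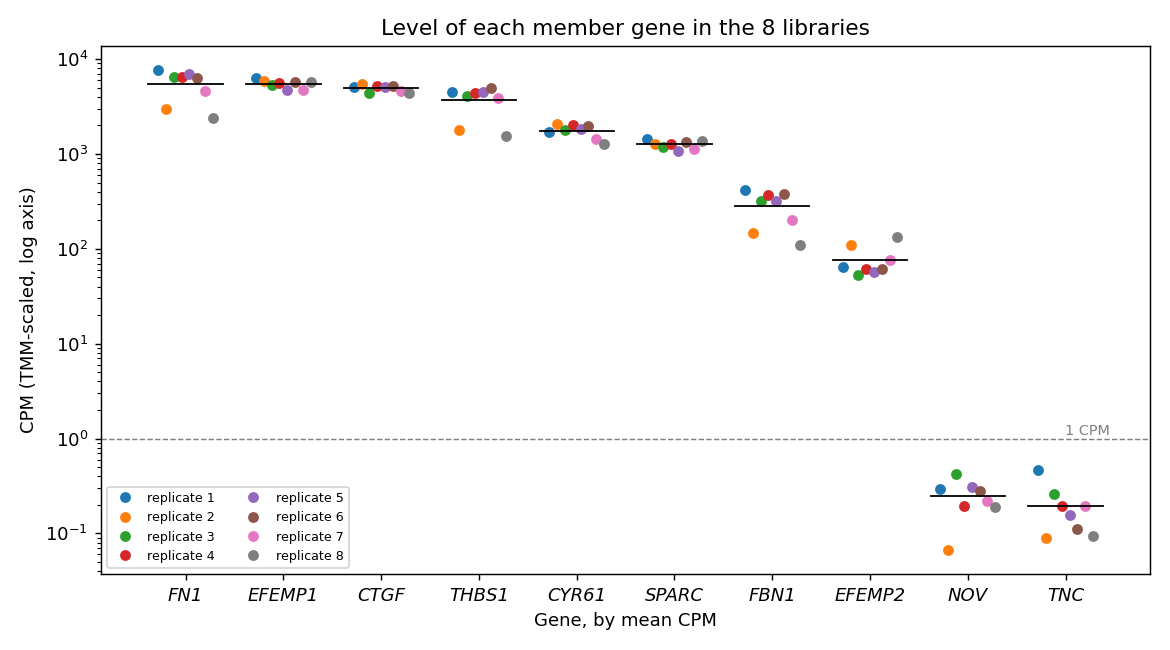
CPM of the 10 member genes (log axis) in each of the 8 libraries, coloured by replicate, with the mean as a black line and the detection level of 1 CPM dashed. FN1, THBS1 and FBN1 are lowest in replicates 8 and 2, EFEMP2 is highest there, and NOV and TNC lie below 1 CPM in every library.

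Fibronectin had the highest mean CPM of the members, by a small margin, and varied widely between libraries. FN1 (chromosome 2, 216225179 to 216300791, minus strand, 46 exons in the canonical transcript; positions of genes are hg19, 1-based) had 7687, 3001, 6553, 6468, 7026, 6290, 4565 and 2369 CPM in replicates 1 to 8. Replicates 8 and 2 were low, replicate 7 was intermediate, and the other 5 lay close together. The mean was 5495 ± 1953 CPM (SD, n = 8) and the highest library exceeded the lowest 3.25-fold. EFEMP1 had nearly the same mean, 5484 CPM, and exceeded FN1 in replicates 2, 7 and 8.

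Among the fibre-associated genes, FBN1 varied like FN1 at a much lower level, EFEMP1 was high and even, and EFEMP2 varied the other way. FBN1 (chromosome 15, 48700503 to 48937985, minus strand, 66 exons) had 418, 146, 319, 374, 319, 379, 201 and 110 CPM in replicates 1 to 8. The order of its 3 low libraries, with replicate 8 lowest, then 2, then 7, was that of FN1. EFEMP1 (chromosome 2, 56093097 to 56151298, minus strand, 12 exons) had 6283, 5841, 5365, 5565, 4687, 5674, 4757 and 5703 CPM, with replicates 5 and 7 lowest and a 1.34-fold range. Replicates 2 and 8, in which FN1 and FBN1 were low, held 2 of the 3 highest EFEMP1 values. EFEMP2 (chromosome 11, 65633912 to 65640405, minus strand, 11 exons) had 64.3, 110, 52.4, 60.7, 57.1, 61.7, 76.6 and 132 CPM. Its levels were highest in replicates 8 and 2, then 7. EFEMP2 overlaps the listed gene MUS81, and the use of strand in counting is not given in the sources used here, so reads from the shared part cannot be assigned with certainty.

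Among the matricellular genes, THBS1 fell into the FN1 pattern in replicates 2 and 8 only, whereas SPARC was even. THBS1 (chromosome 15, 39873280 to 39889668, plus strand, 22 exons) had 4454, 1797, 4091, 4391, 4535, 4963, 3868 and 1563 CPM in replicates 1 to 8. Replicate 7 stayed near the 5 high libraries, unlike for FN1 and FBN1. SPARC (chromosome 5, 151040657 to 151066615, minus strand, 10 exons) had 1453, 1282, 1179, 1275, 1069, 1345, 1138 and 1383 CPM, a 1.36-fold range. As for EFEMP1, its 4 lowest libraries were replicates 5, 7, 3 and 4 in that order, and replicate 1 was highest. TNC (chromosome 9, 117781854 to 117880536, minus strand, 28 exons) had only 8 to 32 counts per library, or 0.0886 to 0.470 CPM.

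In the CCN family CTGF and CYR61 were abundant and NOV was close to absent. CTGF (chromosome 6, 132269317 to 132272518, minus strand, 5 exons) had 5129, 5436, 4354, 5235, 5058, 5215, 4658 and 4359 CPM in replicates 1 to 8, with a 1.25-fold range, the smallest of the members. CYR61 (chromosome 1, 86046444 to 86049648, plus strand, 5 exons) had 1720, 2062, 1787, 2009, 1844, 1963, 1429 and 1277 CPM. Both CCN genes were highest in replicate 2, where FN1, THBS1 and FBN1 were low. CYR61 was lowest in replicates 8 and 7, and CTGF in replicates 3 and 8. NOV (chromosome 8, 120428552 to 120436678, plus strand, 5 exons) had 6 to 32 counts per library, or 0.0665 to 0.419 CPM (mean 0.246 ± 0.105, SD, n = 8).

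Levels of different genes were compared per transcript length, as RPKM with the longest transcript of the reference annotation. CTGF led with 2109 ± 178 RPKM (SD, n = 8), followed by EFEMP1 with 1814 ± 178, and CTGF was the higher of the pair in 7 of 8 libraries, although their ranges overlapped. FN1 (599 ± 213 RPKM), CYR61 (572 ± 90.7), THBS1 (476 ± 166) and SPARC (367 ± 37.6) formed a second tier whose neighbours overlapped and kept their order in 6 of 8 libraries each. EFEMP1 exceeded FN1 3.03-fold in mean, in 8 of 8 libraries and without overlap. EFEMP2 (33.8 ± 12.7 RPKM) and FBN1 (24.4 ± 9.96) came next and overlapped, with EFEMP2 the higher in only 3 of 8 libraries, and SPARC exceeded EFEMP2 10.8-fold without overlap. NOV (0.0270 to 0.170 RPKM) and TNC (0.0231 ± 0.0147) were lowest. The order within the second tier depended on the length used. With canonical transcripts CYR61 had 773 and FN1 655 RPKM, and with the union of all exons CYR61 had 476, THBS1 405 and FN1 319 RPKM. Union lengths also put FBN1 (15.3 RPKM) above EFEMP2 (14.3 RPKM).

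Related members differed in level by amounts that were steady for some pairs and not for others (6 pairs, chosen after the values were seen). The log2 ratio of EFEMP1 over SPARC, per length, was 2.31 ± 0.05 (SD, n = 8) and lay between 2.23 and 2.38 in all libraries. FN1 over FBN1 was 4.65 ± 0.17, and CTGF over CYR61 ranged from 1.68 to 2.17, a mean ratio of 3.72-fold. FN1 over THBS1 was 0.34 ± 0.19, with 0.0034 in replicate 7, and its sign turned to -0.34 with union exon lengths. EFEMP1 over EFEMP2 was 5.82 ± 0.46, from 5.02 in replicate 8 to 6.27 in replicate 3. On the deposited CQN values, which are adjusted for length and GC content, the same difference was 4.72 ± 0.09. Thus the ratio of the 2 fibulins varied across libraries in CPM-based values and hardly in the CQN values, whereas the EFEMP1 to SPARC ratio was steady on both (CQN difference 1.38 ± 0.06).

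The other genes of these families were mostly lower than the members, some of which were chosen for their high counts. Of 53 further genes in 8 lists, 31 were detected, against 51.3% of all genes. Of the 31, 2 varied above the trend described below (SPOCK1 and MMRN1), against 4.66% of all detected genes. None of the 3 other CCN genes was detected, with WISP2 highest at 0.746 ± 0.176 CPM (SD, n = 8) and WISP3 and WISP1 at means of 0.0851 and 0.0057 CPM. Of the other thrombospondins THBS3 (2.59 ± 0.601 RPKM) and COMP (0.649 ± 0.087 RPKM) were detected, while THBS2 and THBS4 had means of 0.111 and 0.0662 CPM. Thus 1 thrombospondin gene, THBS1, made up nearly all reads of its family. TNXB (0.807 ± 0.174 RPKM) was the only other tenascin detected, and it overlaps 7 listed genes. TNN and TNR had means of 0.0153 and 0.0030 CPM.

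FSTL1, a secreted SPARC-like glycoprotein, led the SPARC list with 118 ± 21.8 RPKM (SD, n = 8), below SPARC itself. SMOC1 (48.2 ± 10.9 RPKM) and SPOCK2 (23.7 ± 2.12) followed, while SPARCL1, SMOC2 and SPOCK3 were not detected. SPOCK1 had 10.97 and 11.1 CPM in replicates 2 and 8 and 42.9 to 73.4 CPM in the others. In the fibulin list FBLN5 (18.4 ± 3.74 RPKM), FBLN1 (11.3 ± 1.27) and FBLN7 (6.31 ± 1.24) were all below EFEMP2, FBLN2 was detected at 0.370 ± 0.0633 RPKM, HMCN1 was not detected and HMCN2 is not listed. Of the fibrillins and latent TGF-beta binding proteins 5 of 6 were detected, led by LTBP2 (28.4 ± 6.06 RPKM), LTBP3 (23.1 ± 7.78) and LTBP1 (12.7 ± 3.53), with FBN3 not detected. LTBP2 was thus near FBN1 in level.

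Elastin itself (ELN) was not detected, at 0.178 ± 0.0833 CPM (SD, n = 8), although 11 of 15 genes of elastic fibres and microfibrils were. The lysyl oxidase LOXL2, which cross-links collagen and elastin, led with 110 ± 6.10 RPKM, followed by MMRN2 (48.7 ± 7.64 RPKM), an endothelial EMILIN family glycoprotein, and MFAP3 (13.5 ± 3.85 RPKM). MFAP4, MFAP5 and EMILIN3 were not detected. MMRN1 was lowest in replicates 5 and 7, at 18.9 and 20.5 CPM against 47.8 to 67.7 CPM elsewhere. These 2 libraries also held the lowest EFEMP1 and SPARC values, and the lowest of the endothelial markers CDH5, VWF, TIE1, EMCN and CLDN5. Of 10 other matricellular and matrix genes 4 were detected, led by count by PXDN (55.1 ± 10.6 RPKM), TGFBI (78.3 ± 14.1 RPKM) and SRPX2 (8.60 ± 1.43 RPKM).

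**Figure D2:**
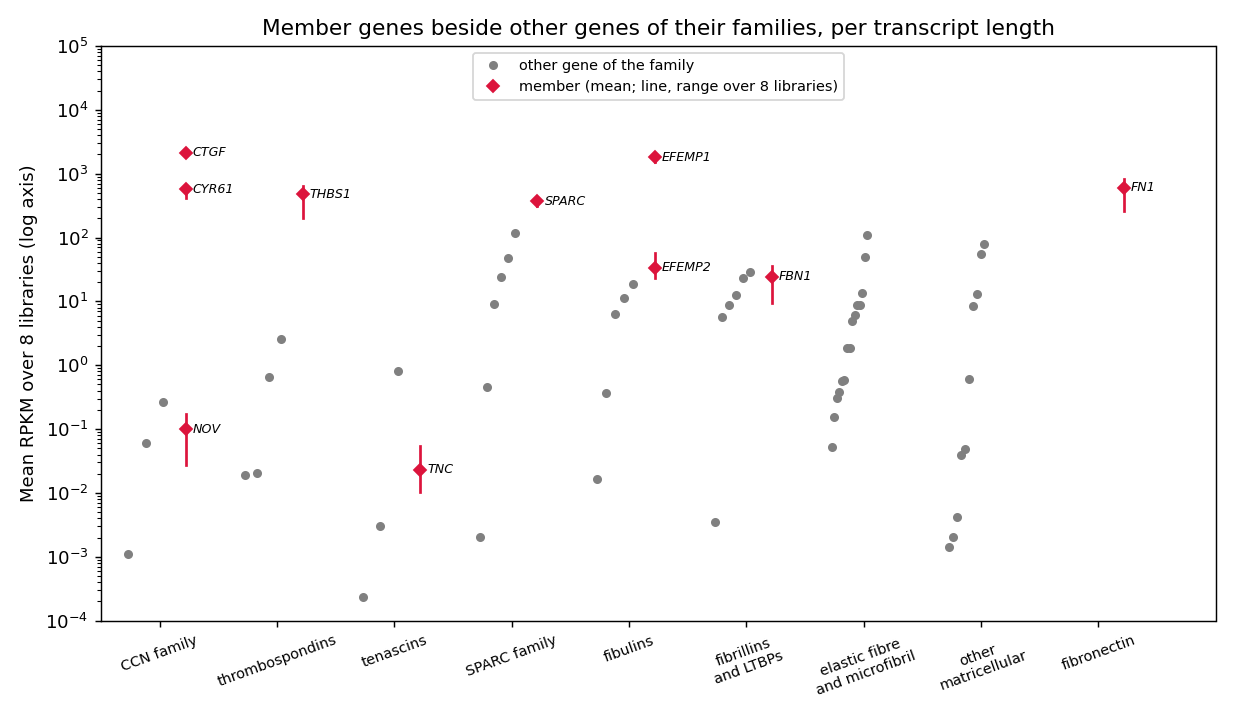
Mean RPKM over 8 libraries (log axis) of the members (red, with the range over libraries as a line) and of the other genes in their families (grey; genes with no counts are left out). CTGF, CYR61, THBS1, SPARC and EFEMP1 lie above every other gene of their families, NOV and TNC lie under 1 RPKM. The members were chosen because FN1, EFEMP1, CTGF and THBS1 are among the most counted genes.

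Most genes examined for the receptors and regulators of these proteins were detected, against 51.3% of all genes. Of 16 receptor genes 11 were detected, led by count by ITGB1 (270 ± 62.4 RPKM, SD, n = 8), CALR (734 ± 135 RPKM) and ITGA5 (270 ± 26.4 RPKM). ITGA5 and ITGB1 encode the main fibronectin receptor and had similar levels. The undetected receptors were ITGA4, ITGA9, ITGA8, ITGB6 and the thrombospondin receptor CD36, whereas CD47, another thrombospondin receptor, had 10.1 ± 1.30 RPKM. ITGAV was the 1 receptor above the variation trend, with a range of 159 to 611 CPM (edgeR adjusted p = 0.00142). Over all detected genes 4.66% lay above that trend. All 9 YAP and TEAD pathway genes were detected, led by count by WWTR1 (49.7 ± 9.55 RPKM), TEAD1 (19.6 ± 7.47) and LATS2 (21.7 ± 7.11). TEAD1 and LATS1 varied above the trend (edgeR adjusted p = 0.0171 and 1.47e-06). Of 15 YAP and TEAD target genes, with LATS2 again among them, all were detected. They were led by ANKRD1 (711 ± 173 RPKM), CRIM1 (177 ± 49.5) and AXL (98.4 ± 18.2). PTPN14 and DLC1 varied above the trend (edgeR adjusted p = 0.0283 and 0.0272).

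Whether a member varied more between libraries than genes of like abundance was tested by the goodness of fit of an edgeR model whose dispersion was set to the trend, adjusted over all detected genes. Of these genes 4.66% (558 of 11980) lay above the trend at an adjusted p under 0.05, and of the 8 detected members 1 did. That member was FBN1, with a biological coefficient of variation of 40.5% against 23.2% on the trend (edgeR adjusted p = 0.00914). The name of this coefficient is that of edgeR, and the variation may be technical here. THBS1 (36.8%, edgeR adjusted p = 0.0541), FN1 (36.1%, adjusted p = 0.0716) and EFEMP2 (31.6%, adjusted p = 0.283) did not pass. CTGF, EFEMP1, SPARC and CYR61 had coefficients of 14.4%, 15.1%, 15.2% and 18.8%, all below their trend values of 23.3 to 23.5%. The FBN1 call was lost when the 2 most extreme libraries by length slope were dropped: without replicates 2 and 8 together its adjusted p was 0.114 and none of the members passed (1 had an unadjusted p under 0.05), whereas leaving out either alone left 0.0302 or 0.0434. Against a trend fitted by DESeq2, 4 of the 8 members lay above it, adding FN1, THBS1 and EFEMP2, but so did 23.5% of all genes (2811 of 11980).

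On the log2 scale, log2(CPM + 0.1), the SD between libraries was 0.71 for FBN1, 0.65 for THBS1, 0.63 for FN1 and 0.48 for EFEMP2, against a median of 0.28 over all detected genes. It was 0.25 for CYR61, 0.15 for SPARC, 0.14 for EFEMP1 and 0.12 for CTGF. Without replicates 2 and 8 the SD of THBS1 was 0.12, that of EFEMP2 0.18, that of FN1 0.26 and that of FBN1 0.38, with a median of 0.17 over all detected genes. Among the other 6 libraries THBS1 thus varied less than the median gene, and FBN1 more.

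**Figure D3:**
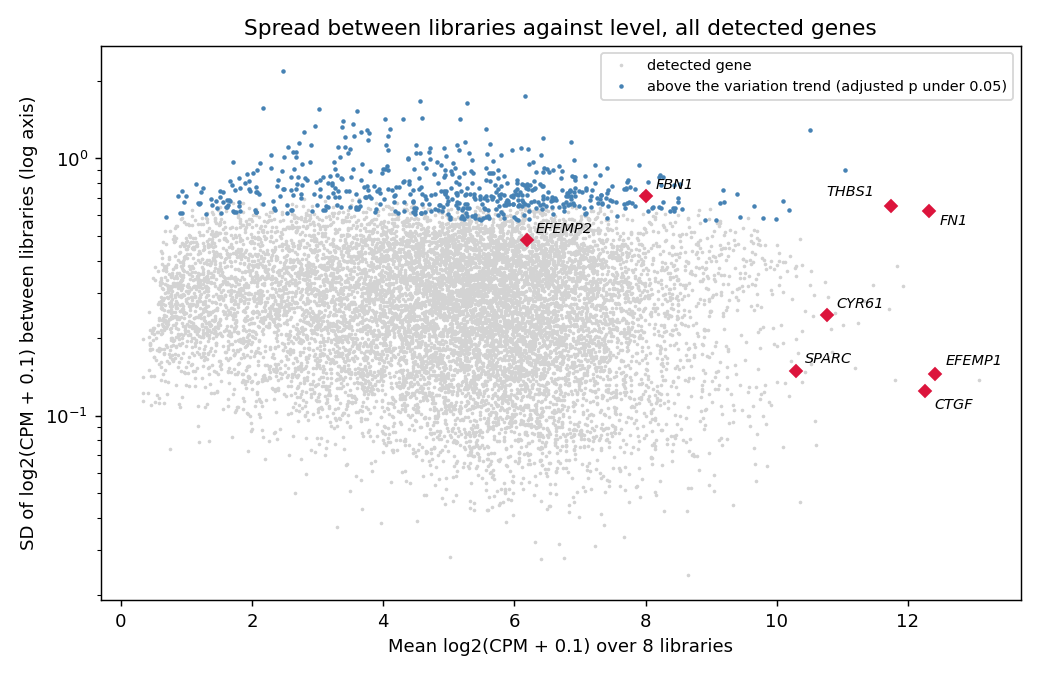
SD of log2(CPM + 0.1) between the 8 libraries (log axis) against mean log2(CPM + 0.1), for all detected genes (grey), those above the variation trend (blue) and the 8 detected members (red diamonds). FBN1, THBS1 and FN1 lie high, at 0.71, 0.65 and 0.63, and CTGF, EFEMP1 and SPARC lie low, at 0.12, 0.14 and 0.15.

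The members' levels were then set against the length slope of the libraries, with an exact two-sided permutation test of Pearson's r over all pairings, adjusted over all detected genes. The slope is made from the same table, so the relation describes the libraries and is not an independent measure. Of all detected genes 31.6% were positively and 36.8% negatively related to it, so the relation was common. Of the 8 members 3 were positively and 1 negatively related. FBN1 had an r of 0.989 over the 8 libraries (exact permutation p = 5.21e-04, adjusted to 0.00252). Its Spearman rho was 0.929, with an exact p of 0.00223 that became 0.0147 on adjustment. FN1 had an r of 0.975 (exact permutation p = 0.00186, adjusted to 0.00516) and a rho of 0.833, with an exact p of 0.0154 that became 0.0443. The r of THBS1 was 0.929 (exact permutation p = 0.00216, adjusted to 0.00552), but its rho of 0.690 did not pass, with an exact p of 0.0694 and 0.116 after adjustment.

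EFEMP2 was the negative member, with an r of -0.960 (exact permutation p = 0.00213, adjusted to 0.00548) and a rho of -0.667 that did not pass (exact p of 0.0831, adjusted to 0.133). CTGF (r = 0.272), CYR61 (0.569), EFEMP1 (-0.0085) and SPARC (-0.109) were not called, with adjusted p from 0.158 to 0.989 in the permutation test. Without replicates 2 and 8, the 2 farthest from the median slope, r was 0.943 for FBN1, 0.868 for FN1, 0.653 for THBS1 and -0.776 for EFEMP2. None of the 8 members passed the adjusted test on 6 libraries (1 had an unadjusted p under 0.05), but neither did any other gene. Replicates 1, 3, 4 and 6 had nearly equal slopes (0.15 each), so exchanging them hardly changed r. The test on 6 libraries could therefore hardly pass a gene, and no conclusion is drawn from it. The 3 positive members have the longest transcripts of the 8 (FBN1 11609 nt, FN1 9171 nt, THBS1 7789 nt) and EFEMP2 the shortest (2277 nt). CTGF, at 2338 nt, is nearly as short as EFEMP2 and was not called. EFEMP2 and CTGF also differed in the GC content of their exons, at 60.6% and 51.5%. It was 44.9% for FBN1, 44.4% for FN1 and 45.7% for THBS1, but also 44.6% for EFEMP1, which was not called. The part of GC content in these relations was not tested. Among the family genes, 8 of the 31 detected were positively related (TNXB, SPOCK1, FSTL1, FBN2, LTBP1, LTBP2, MFAP3 and PXDN) and 9 negatively (COMP, SMOC1, SPOCK2, LTBP3, LTBP4, MFAP2, EMILIN1, LOXL1 and ECM1). Of the 11 detected receptors, ITGAV, ITGB1, ITGB3, CD47 and LRP1 were positive and ITGB5 and CALR negative. Of the 9 YAP and TEAD pathway genes, YAP1, WWTR1, TEAD1, LATS1 and LATS2 were positive and TEAD2 and TEAD4 negative. Of the 15 target genes 8 were positive (AMOTL1, AXL, NT5E, TGFB2, CRIM1, LATS2, PTPN14 and DLC1) and AJUBA was negative.

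These deviations were set beside that of other genes of like length. In replicate 8 the log2 deviation from the gene mean was -1.11 for FN1, -1.14 for THBS1 and -1.22 for FBN1. In the same library the longest 8th of the detected genes (1455 genes, median 9277 nt) had a median of -0.59, with its 10th percentile at -1.21. In replicate 2 the deviations were -0.77, -0.94 and -0.82, with a class median of -0.40 and a 10th percentile of -0.94. The 3 genes thus lay below the median of long transcripts in both libraries. EFEMP2 deviated by 0.86 in replicate 8, against a median of 0.36 and a 90th percentile of 0.82 in its own length class (1454 genes, median 2186 nt), and CTGF, of the same class, by -0.17. Transcript length, library and any difference between the cultures cannot be told apart in a design of 1 group.

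When each library's trend on length and GC content was subtracted, the SD between libraries was 0.45 for THBS1, 0.34 for FBN1, 0.33 for FN1 and 0.18 for EFEMP2. That of CTGF was 0.24 and that of CYR61 0.29, both higher than before, and EFEMP1 and SPARC were at 0.14 and 0.13, against a median of 0.18 over all genes. With these trends as offsets in the goodness-of-fit test, 6.35% of 11636 genes lay above the trend, and 1 member did, which was then THBS1 (edgeR adjusted p = 0.0324) and no longer FBN1 (0.295). FN1, which had not passed before, did not pass with the offsets either (edgeR adjusted p = 0.538). THBS1 retained deviations of -0.67 in replicate 2 and -0.75 in replicate 8, and between 0.07 and 0.37 elsewhere.

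**Figure D4:**
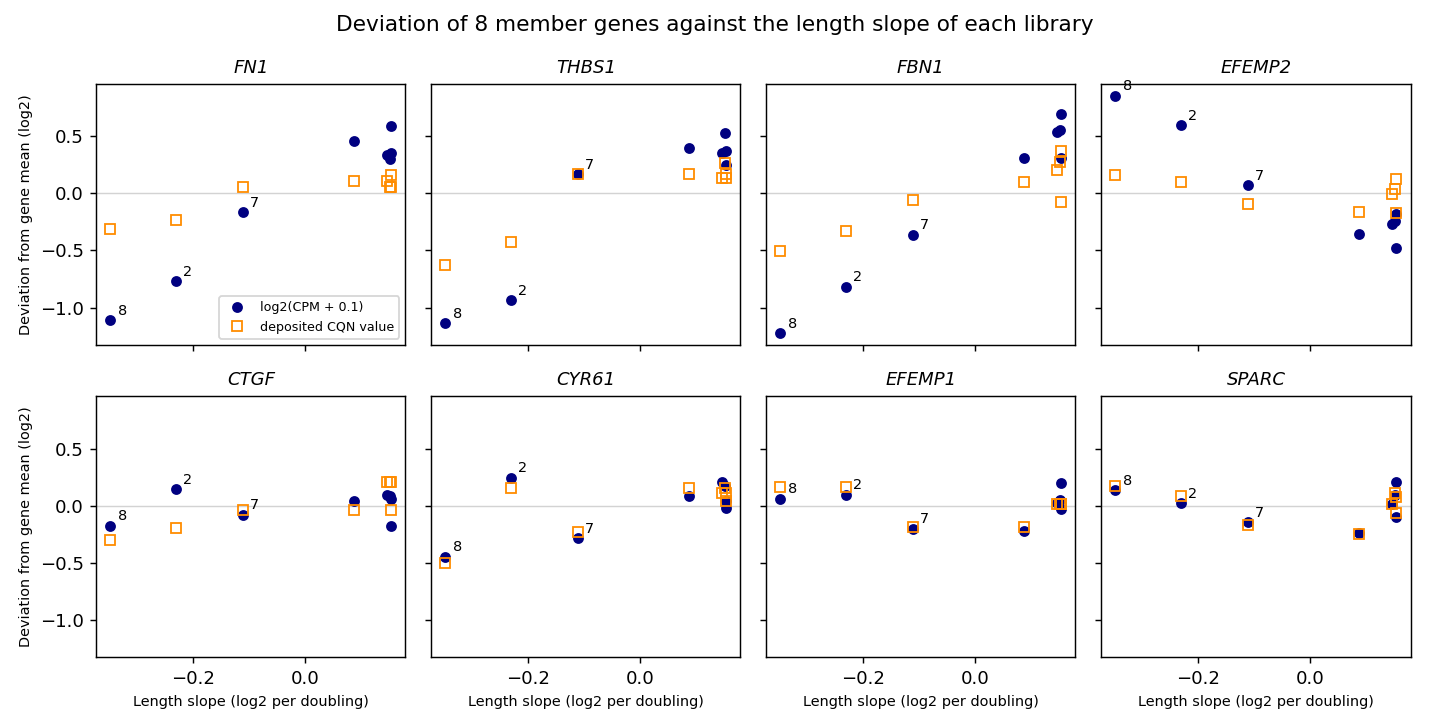
Deviation of 8 members from their own mean (log2) against the length slope of each library (log2 per doubling of transcript length), for log2(CPM + 0.1) (filled circles, replicates 2, 7 and 8 numbered) and the deposited CQN values (open squares). FN1, THBS1 and FBN1 rise with the slope (r = 0.975, 0.929 and 0.989 on log2 CPM), EFEMP2 falls (-0.960), and EFEMP1 and SPARC show no such trend.

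In the authors' CQN values FN1, THBS1, FBN1 and EFEMP2 varied less than in CPM, and CTGF more. FN1 had CQN values of 11.79, 11.40, 11.69, 11.74, 11.74, 11.69, 11.69 and 11.32 in replicates 1 to 8 (SD 0.17), so replicates 8 and 2 stayed lowest. THBS1 had 11.60, 11.04, 11.64, 11.60, 11.64, 11.74, 11.64 and 10.84 (SD 0.33), and FBN1 ranged from 7.27 to 8.15 (SD 0.30), again lowest in replicates 8 and 2. EFEMP2 ranged only from 7.23 to 7.57 (SD 0.13). CTGF had 12.53, 12.13, 12.28, 12.53, 12.28, 12.53, 12.28 and 12.02 (SD 0.19), with replicate 8 lowest and replicate 2 next, although replicate 2 was its highest library in CPM. The median SD of CQN values over detected genes was 0.16.

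CQN values of the most abundant members move in steps, which limits their use as a measure of spread. The 160 values that make up the 20 highest in each of the 8 libraries took only 40 distinct values at 4 decimals. EFEMP1 took 3 distinct values over 8 libraries (2 decimals) and CTGF took 4. CTGF held the highest value in the table in replicates 1, 4 and 6 and EEF1A1, the translation elongation factor, did so in the other 5.

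The detected genes most like the leading members across the 8 libraries were found by Pearson's r of CQN values, as a description over 8 libraries that share their scaling. They were ERC1 (r = 0.997), EEF1A2 (0.992) and HUWE1 (0.992) for FN1, and CCNE2 (0.994), GPR176 (0.993) and ELF4 (0.992) for THBS1. For EFEMP1 they were PAQR8 (0.986), GIMAP8 (0.984) and ZNF280D (0.984), and for CTGF they were PTPRE (0.980), FLJ11235 (0.978) and ZNF702P (0.972). These r values are high partly because they were picked as the highest over all detected genes. Those of EFEMP1 and CTGF also rest on only 3 and 4 distinct CQN values. On log2(CPM + 0.1) none of these genes stayed among the 3 nearest of its member. There FSTL1 was among the nearest to FN1 (r = 0.997, with HCG18 and TULP4), and the type I TGF-beta receptor TGFBR1 among the nearest to THBS1 (r = 0.992, with SLC35G1 and RND3).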

How the data were processed

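Polyadenylated RNA of 8 hCMEC/D3 replicates was made into libraries with an Illumina TruSeq kit (v2), as the labels' protocols state. The submitters' processing notes name hg19, CASAVA 1.9, TopHat2 2.0.6 and HTSeq. Annotation and strand setting are not given in the sources used here. The deposited table holds whole-number counts per gene, which the authors did not normalise, and the authors' CQN values for 13962 genes, taken to be log2 from their range and the method. 0 further columns of per-sample values were present.

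CPM used TMM factors (edgeR 4.0.16, R 4.3.3). RPKM used the longest transcript in GENCODE 44 lifted to GRCh37, found for 21456 of 23346 genes and 11636 of the 11980 detected. Variation was tested with an intercept-only edgeR model at the trended dispersion and its goodness of fit, with Benjamini-Hochberg adjustment over detected genes. On simulated counts with 200 of 11980 genes raised 4-fold in 1 library, 178 of the 200 were called, among 182 calls, and with none changed 0 were called. Relations with the length slope were tested by exact permutation (scipy 1.17.1). In a check of that test with known changes in 200 of 2000 genes, 104 of the 200 were called, among 110 calls. That check held a far smaller share of related genes than the 8185 of 11980 called in the data, so its rate does not carry over. A gene not called in the data may still have been missed, at a rate not known. Alternatives included DESeq2 1.42.0 size factors and dispersion trend, other filters, lengths and scales, and left-out libraries. The members, the 11 gene lists and the tests were chosen with earlier results of these data known. Named genes were the members, the 3 genes most like FN1, EFEMP1, CTGF and THBS1, and from each list the 3 highest, the undetected where 5 or fewer, and those called in a test.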

Additional observations from a re-analysis of the deposited data

Results flagged for a closer look

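Among 63 sets of 8 values examined (members on both scales, their ratios and the named genes of the lists), 2 had a library far from the others, while chance gives about 1 in 20. Neither was a member. For TNXB the gap between replicate 8 (6.65 CPM) and the next lowest library, replicate 2 (10.2 CPM), was 0.563 of the range on the log2 scale. For TNR it was 1, since replicate 7 alone had counts, at 0.0244 CPM.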

How the results depend on the processing

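FBN1 alone among the members stayed above the variation trend with DESeq2 size factors, both other count filters, halved counts and without any single replicate. With the DESeq2 fitted trend, 2811 genes and 4 members lay above it. Without replicates 2 and 8 the numbers were 335 genes and 0 members. The number of genes related to the length slope fell from 8185 to 4016 on CQN values and to 4160 with Spearman's rho, which left 2 members. Without replicates 2 and 8 it was 0 genes and 0 members, by the permutation test on 6 libraries, where 5444 genes and 1 member had an unadjusted p under 0.05. Because replicates 1, 3, 4 and 6 had nearly equal slopes, that test could hardly pass a gene. The 0 thus does not show that the relation was lost. On CQN values CTGF (r = 0.870, adjusted p = 0.0147 in the permutation test) took the place of EFEMP2 (r = -0.469, adjusted p = 0.351), and without replicate 2 CYR61 was added (r = 0.931, adjusted p = 0.0313). All 20 recomputed CPM levels moved by less than the SD, as did 13 of 20 RPKM levels, and 12 of 18 pair ratios moved by more. The causes were not tested. No paired analysis was possible because there is only 1 group. With 6 to 32 counts per library, NOV and TNC allow no statement on variation. Leaving out replicates 2 and 8, the canonical lengths and the subtracted trends were added after the data were seen.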
